A study of Mus musculus with 6 samples.

Results

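The genes described here encode the protein components of the cytosolic ribosome, and they were chosen by their symbols in the annotation of the Dnmt1-KO arrays: symbols that begin with Rpl or Rps followed by a digit, or Rplp0, Rplp1, Rplp2 or Rpsa. Rps6k kinases and mitochondrial ribosome genes were left out. 81 genes met the rule, of 16411 genes with a promoter window, and all 81 had a window. The group was proposed with results of these data in view, so the values of these same arrays are given as a description, with no test. Of the 81, 75 are core subunits (44 of the large and 31 of the small subunit), 5 are paralogues (Rpl3l, Rpl7l1, Rpl22l1, Rpl36al and Rps27l), and Rps19bp1 encodes a protein that binds Rps19. Rps3a is today's Rps3a1. The annotation lists further core genes under symbols outside the rule, among them Rplp0 (as Arbp), Rpl34 and Fau, and these were kept out of the 81.

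The study mapped Rybp, a subunit of variant Polycomb repressive complex 1, on the promoters of mouse embryonic stem (ES) cells. There were 3 genotypes: cells with a constitutive Dnmt1 knockout (Dnmt1-KO), which lack the maintenance DNA methyltransferase, cells with a constitutive Eed knockout (Eed-KO), which lack a core subunit of Polycomb repressive complex 2, and wild-type cells (WT). All 3 were cultured with serum and a commercial leukaemia inhibitory factor (ESGRO) on irradiated feeder fibroblasts or on gelatin, and the labels do not say which cultures had feeders or whether a line was 1 clone. Fixed chromatin was precipitated with 1 anti-Rybp antibody, and amplified IP DNA (Cy5) was hybridised against amplified input DNA (Cy3) on a set of 2 array designs, so that each gene had 1 array per genotype and there was no replicate. No p-value was computed, and every error below is scatter between neighbouring probes of 1 array, which does not include the spread between cultures.

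Ribosomal protein genes are among the most heavily transcribed genes of growing cells. Their mRNAs often begin with a C followed by a run of pyrimidines, the TOP sequence, through which mTOR signalling controls their translation, and their promoters are commonly rich in CpG dinucleotides and poor in TATA boxes. Variant Polycomb repressive complex 1 is known to reach CpG-rich promoters by routes that need Polycomb repressive complex 2 and by routes that do not.

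A level is the log2 ratio of IP to input, centred on the median probe of its array, and the level of a promoter is the mean over the 6 neighbouring probes nearest the annotated start, within at most 3 kb. Promoters with a level of 1 or more, a 2-fold ratio, were called bound. The 6 arrays differed in kind: the standard deviation of the log2 ratio over all probes was 0.912 and 0.957 on the Dnmt1-KO arrays, 0.449 and 0.468 on the Eed-KO arrays, and 0.413 and 0.417 on the WT arrays. The Dnmt1-KO arrays were read on another scanner model and with another version of the extraction software, which cannot be told apart from the genotype. Because the arrays measured DNA, marker genes of a cell type report nothing on which cells were present: the median level over 7 ES cell marker promoters was 0.74 in Dnmt1-KO, 0.15 in Eed-KO and 0.42 in WT cells, and over 10 fibroblast marker promoters 0.82 in Dnmt1-KO, 0.63 in Eed-KO and 0.63 in WT cells.

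At their starts, the ribosomal protein genes carried a low Rybp signal in WT cells. Their median start-window level was 0.57 in Dnmt1-KO cells, 0.16 in Eed-KO cells and 0.32 in WT cells, against 0.70, 0.11 and 0.18 over all promoters in the same order of genotypes. In Dnmt1-KO cells 17 of the 81 were bound, where 35.9% of all promoters were. In Eed-KO cells none of the 81 was bound, beside 1.98% of all promoters, and in WT cells none was bound, beside 1.91%. At the lower threshold of 1.5-fold, 39 of the 81 passed in Dnmt1-KO cells (55.2% of all promoters), none in Eed-KO cells (10.6%) and 9 in WT cells (12.9%). Members were thus no more often past either threshold than promoters in general, while their WT median lay higher, with quartiles of 0.24 and 0.46 in WT cells, against -0.04 and 0.41 over all promoters.

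The highest WT levels were at genes of both subunits. Rps4x, the small-subunit gene on the X chromosome, had levels of 0.49 in Dnmt1-KO, 0.55 in Eed-KO and 0.95 in WT cells (SD over 6 probes 0.36, 0.33 and 0.47), the highest WT level of the 81 and just under the threshold of 1. Rpl3, whose protein lies near the peptidyl transferase centre, had 0.35 in Dnmt1-KO, 0.52 in Eed-KO and 0.76 in WT cells. Rpl35a had -0.01 in Dnmt1-KO, 0.48 in Eed-KO and 0.76 in WT cells. Rpl4, Rpl14, Rpl19 and Rps9 had WT levels between 0.63 and 0.74. The differences between neighbours in this order were smaller than the scatter between the probes of 1 promoter. The lowest WT levels belonged to Rpl3l at -0.27, Rpl9 at -0.17, Rpl28 at 0.03 and Rps21 at 0.04. Rpl3l is the paralogue of Rpl3 that is used in skeletal and heart muscle. The Rpl9 value rests on 1 probe, centred 494 bp upstream of the annotated start, which read 0.08 in Dnmt1-KO, -0.47 in Eed-KO and -3.36 in WT cells, while the other 5 probes of Rpl9 lay between 0.19 and 0.78 in WT cells. The RefSeq promoter of Rpl9 places the same probe at bases -79 to -35, so the array's start and the RefSeq start lie far apart there.

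Large-subunit and small-subunit genes had similar levels. The median of the 44 large-subunit genes was 0.62 in Dnmt1-KO, 0.17 in Eed-KO and 0.35 in WT cells, and that of the 31 small-subunit genes 0.55, 0.13 and 0.29 in the same order. The 2 acidic stalk genes on the list that recruit translation factors to the ribosome did not stand out: Rplp1 had 0.61 in Dnmt1-KO, 0.31 in Eed-KO and 0.45 in WT cells, and Rplp2 had 0.63, -0.01 and 0.16. The third stalk gene, Rplp0, found by its accession outside the 81, had 0.75 in Dnmt1-KO, -0.09 in Eed-KO and 0.06 in WT cells.

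In Eed-KO cells, nearly every ribosomal protein gene read slightly below its WT value at the start. 78 of the 81 start-window differences (Eed-KO minus WT) were below 0, where 64.5% of all promoters were. The median difference of the members was -0.16, against -0.06 for all promoters, and the members ran from -0.42 to 0.23. All 6 probes of the window were lower in Eed-KO cells at 17 of the 81 genes, where 8.87% of all promoters had that pattern, and all 6 were higher at none, where 2.22% did. A difference of -0.25 or lower was reached by 16 of the 81, against 10.4% of all promoters. None of these differences was near a 2-fold change.

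The lowest Eed-KO differences were at genes of both subunits. Rps3, whose protein sits at the mRNA entry channel of the small subunit, had 0.41 in Dnmt1-KO, -0.15 in Eed-KO and 0.27 in WT cells, an Eed-KO difference of -0.42 (SE over probes 0.10). The difference was -0.41 (SE 0.11) at Rps4x, -0.40 (SE 0.08) at Rpl8 and -0.36 (SE 0.08) at Rpl4, each with all 6 probes lower. Rps10, Rps18, Rpl26 and Rps26 followed with differences between -0.35 and -0.32. At the other end, 3 genes read above WT: Rps7 by 0.03, Rpl3l by 0.15 and Rpl9 by 0.23 (SE 0.54). At Rpl9, 5 of the 6 probes were lower in Eed-KO cells, and the positive mean came from the probe that read -3.36 in WT. Rpl5 and Rpl11, whose proteins hold back the p53 inhibitor Mdm2 when ribosome assembly fails, had Eed-KO differences of -0.01 and -0.15, and Rps19, mutated in Diamond-Blackfan anaemia, had -0.26.

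**Figure D1:**
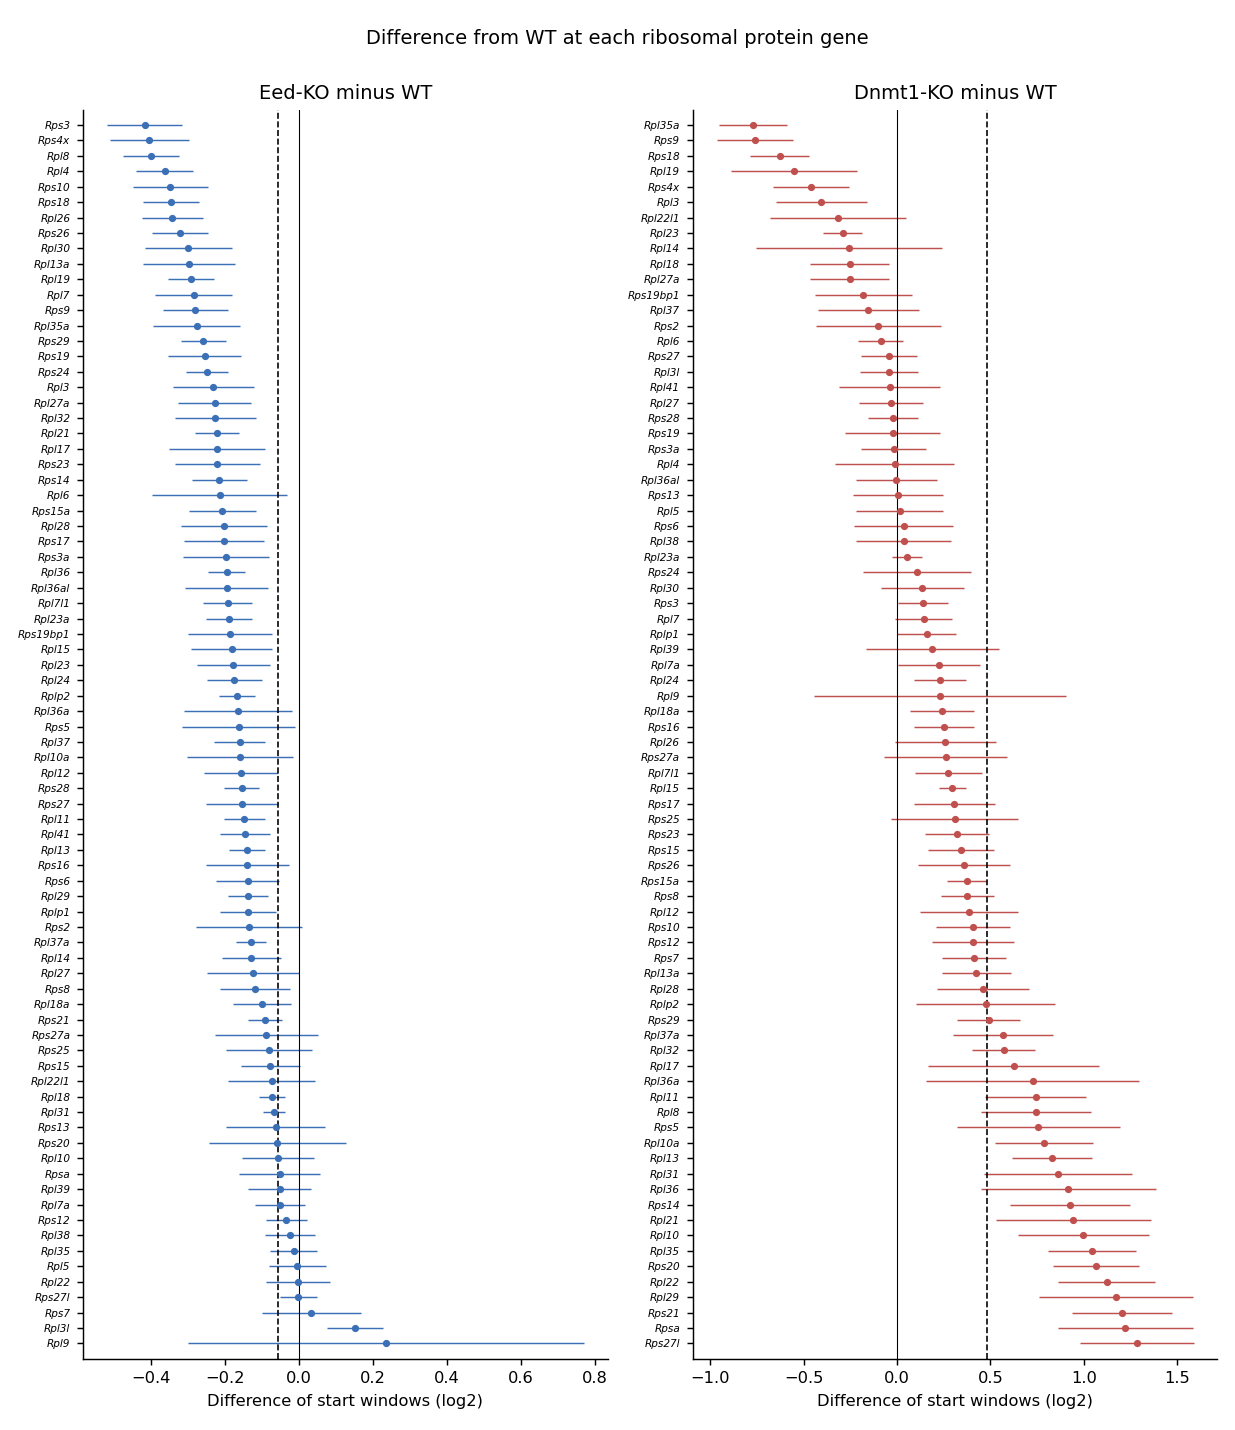
Difference from WT at the start window of 80 of the 81 genes, Eed-KO on the left and Dnmt1-KO on the right, on the log2 scale and ranked within each panel. Points are means over 6 probes, bars are the SE over those probes and the dashed line is the median over all promoters: 77 Eed-KO points lie below 0, whereas the Dnmt1-KO points spread from -0.77 to 1.28.

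Relative to all promoters, the members read lower in the Eed-KO IP channel, while their input channel read close to that of all promoters. With each channel centred on its array's median, the median difference of the members' start windows was -0.10 in the IP channel and 0.05 in the input channel (Eed-KO minus WT), against 0.01 and 0.07 over all promoters. The members on array design 1 had -0.06 in the IP channel and 0.12 in the input channel. All promoters of that design had 0.05 and 0.11. The members on design 2 had -0.19 and -0.01, against -0.04 and 0.02 for all promoters of that design. The other gene groups of protein synthesis moved in the same direction. Of 40 translation factor promoters 37 were below WT in Eed-KO cells, with a median difference of -0.16, of 77 ribosome assembly and RNA polymerase I promoters 63 were, with a median of -0.12, and of 75 mitochondrial ribosome promoters 64 were, with a median of -0.12. The small start-window difference is therefore not shown to be particular to the cytosolic ribosomal protein genes. In the translation list the lowest difference was -0.82 at Eif2s2, an initiation factor subunit, where the Eed-KO probes scattered with an SD of 1.83, followed by -0.33 at Fau, which itself encodes a ribosomal protein. Eif3l and Eif3b, initiation factor subunits, had the highest at 0.06 and 0.09. In the assembly list, Rpf1 and Wdr36 had the lowest at -0.44 and -0.40, and Rrp9 and Polr1e the highest at 0.12 and 0.16.

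In Dnmt1-KO cells the start windows of the members spread widely around a median difference of 0.26 (Dnmt1-KO minus WT), which was below the 0.48 of all promoters. Of the 81, 24 were below WT, where 24.7% of all promoters were. All 6 probes were higher in Dnmt1-KO cells at 13 members, where 34.5% of all promoters had that pattern, and all 6 were lower at 3, where 4.61% did. A difference of at least 1 at a promoter bound in either genotype was found at 8 members, where 18.8% of all promoters had one. Bringing the 3 arrays of a design to 1 spread put 47 of the 81 members and 36.5% of all promoters below WT, so the direction most members took at their starts differed with the scaling. Across the 81 genes, the start-window levels of Eed-KO and WT cells had a Pearson correlation of 0.82, and those of Dnmt1-KO and WT cells 0.15. Over all 16411 promoters the same correlations were 0.88 and 0.75. The members' WT levels spanned a narrower range, with quartiles of 0.24 and 0.46 against -0.04 and 0.41. With GC content, WT and Dnmt1-KO levels had Pearson correlations of 0.50 and 0.66 over all promoters, and -0.19 and 0.24 among members. Whether range or GC content accounts for the members' lower correlation was not tested. Each correlation is a description over probes of the same arrays.

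The 3 genes with all 6 probes lower were Rpl35a, Rps9 and Rps18. Rpl35a had a Dnmt1-KO difference of -0.77 (SE 0.18). Rps9, which helps set decoding accuracy, had -0.13 in Dnmt1-KO, 0.35 in Eed-KO and 0.63 in WT cells, a Dnmt1-KO difference of -0.76 (SE 0.20). Rps18 had -0.10 in Dnmt1-KO, 0.18 in Eed-KO and 0.53 in WT cells, a difference of -0.63 (SE 0.16). Rpl19 at -0.55, Rps4x at -0.46, Rpl3 at -0.40, Rpl22l1 at -0.31 and Rpl23 at -0.29 followed. Rpl35a, Rps9, Rpl19, Rps4x and Rpl3 were also among the genes with the highest WT levels, and the WT value enters both quantities.

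The 6 genes with the highest Dnmt1-KO differences had WT levels from 0.04 at Rps21 to 0.58 at Rpl22. Rps27l, a p53-inducible paralogue of Rps27, had 1.64 in Dnmt1-KO, 0.35 in Eed-KO and 0.36 in WT cells, a difference of 1.28 (SE 0.30). Rpsa, also known as the laminin receptor, had 1.51 in Dnmt1-KO, 0.23 in Eed-KO and 0.29 in WT cells, a difference of 1.22 (SE 0.36). Rps21, Rpl29, Rpl22 and Rps20 had differences of 1.20, 1.17, 1.12 and 1.06. At Rpsa the Dnmt1-KO probes peaked at 2.84, centred 45 bp past the start, and the same probe read 0.29 in Eed-KO and 0.22 in WT cells. Rpl10, whose protein completes the large subunit late in assembly, had a difference of 1.00 (SE 0.35), and Rpl39, which lines the exit tunnel, 0.19 (SE 0.36). In both channels the Dnmt1-KO arrays read promoters higher than the WT arrays did relative to the array median: the members' start windows differed by a median of 1.58 in the input channel and 1.89 in the IP channel, and all promoters by 1.30 and 1.83. In the translation list, the lowest differences were -0.98 at Naca, a nascent-chain chaperone, and -0.69 at Eif4b, and the highest 1.33 at Eif6 and 1.55 at Gspt1, a termination factor. In the assembly list they were -0.38 at Rrn3 and -0.36 at Utp4, and 1.58 at Rrp9 and 1.79 at Gnl3l.

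The paralogues showed both ends of these ranges. Rpl3l had -0.31 in Dnmt1-KO, -0.12 in Eed-KO and -0.27 in WT cells. Rpl22l1 had 0.14 in Dnmt1-KO, 0.38 in Eed-KO and 0.46 in WT cells. Rpl7l1 had 0.60, 0.13 and 0.33, and Rpl36al had 0.48, 0.28 and 0.48, in the order Dnmt1-KO, Eed-KO and WT. Rps19bp1, whose product is no ribosomal protein, had 0.00 in Dnmt1-KO, -0.01 in Eed-KO and 0.17 in WT cells.

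Promoters of genes named above for a high WT level or a low difference are printed here to show the letters around their starts. They are RefSeq sequences of build GRCm38.p6, on the strand of the gene, from 250 bases before the start to 30 bases past it, and capitals mark the motifs searched. Of the 81 genes, 61 had an entry in this table, and Rpl3 and Rpl8 are named without one. For Rpl8 an array probe at an annotated distance of -142 bp is given in its place.
Rps4x (chrX:102189362-102189641, minus strand): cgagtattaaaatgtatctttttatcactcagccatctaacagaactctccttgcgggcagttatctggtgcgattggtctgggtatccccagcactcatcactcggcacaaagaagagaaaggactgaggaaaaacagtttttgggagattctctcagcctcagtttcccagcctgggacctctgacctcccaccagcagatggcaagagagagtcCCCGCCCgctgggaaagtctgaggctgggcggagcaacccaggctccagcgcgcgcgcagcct
Rpl35a (chr16:33056203-33056482, plus strand): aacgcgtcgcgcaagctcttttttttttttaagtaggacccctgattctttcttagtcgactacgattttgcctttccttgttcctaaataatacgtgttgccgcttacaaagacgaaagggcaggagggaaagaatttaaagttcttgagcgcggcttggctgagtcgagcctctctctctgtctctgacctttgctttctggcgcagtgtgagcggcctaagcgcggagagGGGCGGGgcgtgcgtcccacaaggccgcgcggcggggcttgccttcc
Rps3 (chr7:99483680-99483959, minus strand): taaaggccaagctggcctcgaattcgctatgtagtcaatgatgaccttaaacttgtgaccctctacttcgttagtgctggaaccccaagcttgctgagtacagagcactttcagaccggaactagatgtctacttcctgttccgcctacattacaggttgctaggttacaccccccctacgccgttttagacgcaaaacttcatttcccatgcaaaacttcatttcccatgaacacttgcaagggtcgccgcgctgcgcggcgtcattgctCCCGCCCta
Rps9 (chr7:3703791-3704070, plus strand): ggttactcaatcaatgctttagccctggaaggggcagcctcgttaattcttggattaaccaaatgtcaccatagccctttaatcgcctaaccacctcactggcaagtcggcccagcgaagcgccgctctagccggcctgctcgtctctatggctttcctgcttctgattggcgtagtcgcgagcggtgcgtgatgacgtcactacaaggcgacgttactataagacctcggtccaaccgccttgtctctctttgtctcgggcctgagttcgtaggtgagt
Rps18 (chr17:33955636-33955915, minus strand): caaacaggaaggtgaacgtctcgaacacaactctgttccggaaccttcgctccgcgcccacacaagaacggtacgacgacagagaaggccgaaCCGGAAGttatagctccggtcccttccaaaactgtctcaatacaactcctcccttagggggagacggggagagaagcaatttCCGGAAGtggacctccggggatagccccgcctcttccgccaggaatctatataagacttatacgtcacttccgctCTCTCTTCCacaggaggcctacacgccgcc
Rpl8 array probe (chr15:76731187-76731236, build not given in the sources used here): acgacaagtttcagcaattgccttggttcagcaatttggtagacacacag

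Window probes matched the printed Rps9, Rps18 and Rps3 promoters exactly, and none matched the printed Rps4x and Rpl35a sequences. In the Rps9 promoter, 1 probe covers bases -209 to -154 and read 0.01 in Dnmt1-KO, -0.45 in Eed-KO and 0.14 in WT cells, and the probe over bases -39 to 7 read 0.05, 0.21 and 0.40 in the same order. Past the start of Rps9, at an annotated distance of 87 bp, the values were -0.15 in Dnmt1-KO, 0.83 in Eed-KO and 1.18 in WT cells. In the Rps18 promoter, the probe over bases -150 to -102 read 0.36 in Dnmt1-KO, 0.12 in Eed-KO and 0.44 in WT cells, and at the probe 583 bp past the start the values were -0.30, 0.57 and 0.90. In the Rps3 promoter, the probe over bases -66 to -9 read 0.32 in Dnmt1-KO, -0.18 in Eed-KO and -0.16 in WT cells, whereas the probe 314 bp past the start read 0.59, 0.10 and 0.84. The Rpl8 probe printed above read 0.62 in Dnmt1-KO, -0.58 in Eed-KO and -0.39 in WT cells, and the Rpl8 probe 186 bp past the start 1.09, 0.44 and 1.12. At Rps9, Rps18, Rps3 and Rpl8 the highest WT reading of the window was on the transcribed side. At Rps4x it was upstream, with 1.42 in WT cells at -237 bp, against 0.70 at 225 bp and 0.19 at 349 bp. Of 53 genes with a window probe inside a RefSeq promoter, 48 had an array start within 100 bp of a RefSeq start.

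The RefSeq promoters of the members differed in letters from promoters in general. Over the full 300 bases, on both strands, CCGGAAG (the ETS family's core) was in 34.7% of 72 member entries and 8.86% of all 32851 entries, and CCCGCCC (SP and KLF factors) in 47.2% and 25.6%. AAGATGG (YY1) was in 16.7% of member entries and 6.34% of all, GCGGGAA (E2F) in 9.72% and 4.60%, CGCGAA (E2F) in 6.94% and 4.09%, CACGTG (the E-box of Myc) in 8.33% and 7.15%, and TATAAA in 8.33% and 13.6%. A TOP start, a C at the first base followed by at least 4 pyrimidines, was at 18.1% of member entries and 2.51% of all, and Rps18 above is one of them. These are matches of letters, not sites. The TOP match used only the annotated first base, so a start annotated some bases away would be missed. The window probes of the members had a median GC content of 46.4% and 3.46 CpG per 100 bases, against 46.6% and 2.54 over all promoters.

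The WT signal of the ribosomal protein genes was highest past the start and stayed up as far as 2500 bp past it. In bins of 250 bp, the median WT level of the members' probes was 0.20 in the bin that ends at the start, 0.56 between 250 and 500 bp past it, 0.61 between 500 and 750 bp, and still 0.36 between 2250 and 2500 bp. Over all genes, the median WT level in these 4 bins was 0.17, 0.26, 0.20 and -0.06. Upstream of the start, between 1250 and 1000 bp before it, the members' WT median was -0.10. In Eed-KO cells the members' probes followed the same shape at a lower level, with 0.40 between 250 and 500 bp and 0.20 between 2250 and 2500 bp. In Dnmt1-KO cells they did not: the median was 0.77 between 250 and 500 bp and -0.11 between 2250 and 2500 bp.

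**Figure D2:**
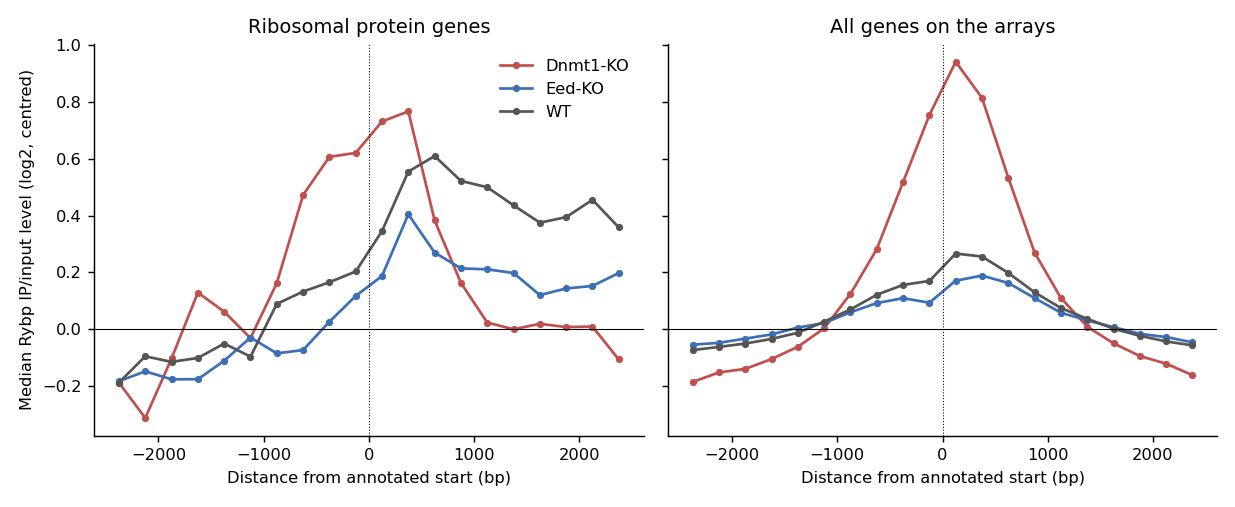
Median Rybp level of all probes in bins of 250 bp by distance from the annotated start, for the ribosomal protein genes (left) and all genes (right), with 1 line per genotype on the log2 scale. On the left the WT line stays at or above 0.36 beyond 250 bp and the Eed-KO line runs under it, while all 3 lines on the right end below 0.

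A zone 500 to 2500 bp past the start was then compared gene by gene. It was chosen after the profile by distance had been seen, so its values describe the profile and do not test it. 78 of the 81 members had at least 3 probes there, as did 15351 genes in all. Whether these probes lie in exons, in introns or past the end of the gene was not determined. The median downstream level of the members was 0.04 in Dnmt1-KO, 0.16 in Eed-KO and 0.46 in WT cells, against 0.03, 0.00 and 0.01 over all genes. A level of at least 1.5-fold was reached in WT cells by 18 of the 78 members, beside 6.41% of all genes, by 5 members in Dnmt1-KO cells, beside 19.7%, and by 1 in Eed-KO cells, beside 6.87%. With the arrays of a design scaled to 1 spread, 48 of the 78 members and 12.7% of all genes reached it in WT cells. Of the 768 genes in the highest 5% of WT downstream levels, 11 were members. The median GC content of the downstream probes was 40.3% at the members and 40.8% at all genes.

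In both knockouts the downstream zone read lower than in WT cells at most members. In Eed-KO cells 77 of 78 members were below WT, where 52.5% of all genes were, and the median difference was -0.29, against -0.01 for all genes. All probes of the zone were lower in Eed-KO cells at 27 members, where 3.73% of all genes had that pattern. In Dnmt1-KO cells 64 of 78 members were below WT, where 48.9% of all genes were, with a median difference of -0.31 against 0.01, and all probes were lower at 10 members, where 5.46% of all genes had that pattern. Scaling the arrays of a design to 1 spread left 77 members below WT in Eed-KO cells, where 53.6% of all genes were. It raised the Dnmt1-KO count to 74, where 53.1% of all genes were. The members' median differences were then -0.44 in Eed-KO and -0.57 in Dnmt1-KO cells, against -0.02 and -0.02 over all genes. All probes were then lower at 30 members in Eed-KO cells, beside 3.77% of all genes, and at 28 members in Dnmt1-KO cells, beside 4.76%. The 2 comparisons share the WT arrays, so a high reading of the WT arrays at these probes would lower both differences, and this was not tested. In the IP channel the members' downstream zones differed from WT by a median of -0.29 in Eed-KO and -0.47 in Dnmt1-KO cells, and in the input channel by -0.02 and 0.00. Within WT cells both channels read high at these zones relative to the array median. The members' median was 0.35 in the input and 0.76 in the IP channel, against 0.05 and 0.06 over all genes. What raised the input reading was not tested.

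**Figure D3:**
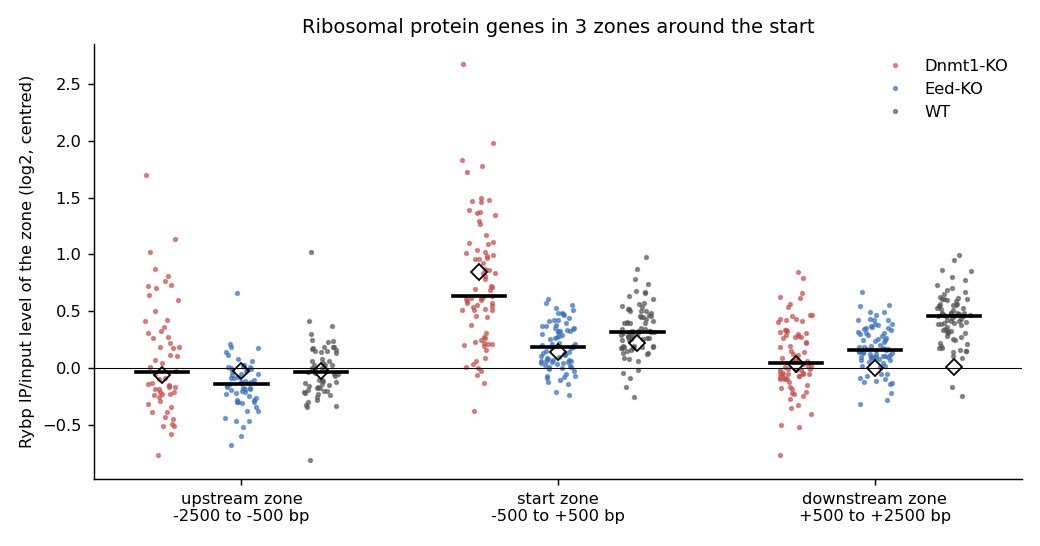
Rybp level of each ribosomal protein gene in 3 zones around the annotated start, on the log2 scale. Points are genes, black bars their medians and open diamonds the medians over all genes: in the downstream zone the bar is at 0.46 in WT cells with the diamond at 0.01, and at 0.04 in Dnmt1-KO and 0.16 in Eed-KO cells.

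Rpl3 carried the highest downstream WT level. Its zone, chr15:79908471-79910018 in the files' coordinates, had 0.07 in Dnmt1-KO, 0.67 in Eed-KO and 1.00 in WT cells (SD over 8 probes 0.30, 0.45 and 0.42). The Eed-KO difference was -0.33 (SE 0.11), with 8 of 8 probes lower, and the Dnmt1-KO difference -0.93 (SE 0.19), with 7 of 8 lower. Single probes of Rpl3 reached 0.28 in Dnmt1-KO, 1.48 in Eed-KO and 1.78 in WT cells at 602 bp, and -0.07, 0.66 and 1.17 at 1386 bp. The probe at 1799 bp read 0.00 in Dnmt1-KO, 0.06 in Eed-KO and 1.02 in WT cells.

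Rps23, Rps12 and Rpl39 came next. Rps23 had -0.05 in Dnmt1-KO, 0.55 in Eed-KO and 0.95 in WT cells, with 7 of 7 probes lower in Dnmt1-KO cells and an Eed-KO difference of -0.40 (SE 0.14). Rps12 had 0.28 in Dnmt1-KO, 0.54 in Eed-KO and 0.86 in WT cells. Rpl39 had -0.19 in Dnmt1-KO, 0.49 in Eed-KO and 0.85 in WT cells, and all 8 of its probes were lower in Dnmt1-KO cells, although its start window stood at 0.08 in WT cells. The lowest Eed-KO difference was at Rpl36a, with -0.62 (SE 0.13) and 13 of 13 probes lower, and Rplp1, Rpl22l1 and Rps29 had -0.54, -0.54 and -0.50. Rpl26 at -1.03 and Rpl39 at -1.04 had the lowest Dnmt1-KO differences. Among the genes above WT in Dnmt1-KO cells, Rps15 read 0.47 higher and Rpl7 0.36, and both were below WT in Eed-KO cells.

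The gene above WT in Eed-KO cells was the muscle paralogue Rpl3l. Its zone had 0.06 in Dnmt1-KO, 0.10 in Eed-KO and -0.25 in WT cells, with an Eed-KO difference of 0.35 (SE 0.11) and a Dnmt1-KO difference of 0.31 (SE 0.07). Rps19bp1, which encodes no ribosomal protein, was the other member with a WT level below 0 there, with -0.77 in Dnmt1-KO, -0.22 in Eed-KO and -0.17 in WT cells. All the core genes with a value lay above 0 in WT cells, and all 72 were below WT in Eed-KO cells. The other 4 paralogues had WT levels from 0.09 at Rps27l to 0.61 at Rpl22l1, and all 4 were below WT in Eed-KO cells. RNA was not measured here, so transcription of these genes in the 3 lines is not part of the data.

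**Figure D4:**
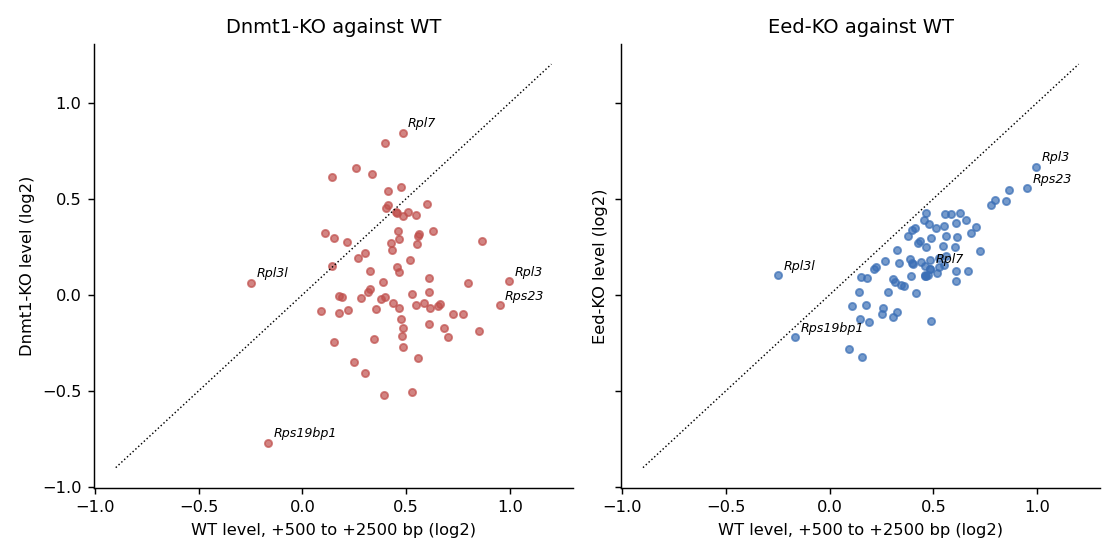
Downstream level of each of 78 ribosomal protein genes in Dnmt1-KO (left) and Eed-KO cells (right), on the y axis, against WT cells on the x axis, both on the log2 scale, with the line of equality dotted. In Eed-KO cells 77 points lie below the line and Rpl3l above it, and in Dnmt1-KO cells 64 points lie below it.

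Among the other lists, translation factors had the lowest Eed-KO differences in this zone. Of 40 with a value, 37 were below WT in Eed-KO and 25 in Dnmt1-KO cells, with median differences of -0.18 and -0.24, from a median WT level of 0.08. Of 75 ribosome assembly and RNA polymerase I genes, 57 were below WT in Eed-KO and 48 in Dnmt1-KO cells, with a median WT level of -0.06. Of 73 mitochondrial ribosome genes, 44 and 39 were, with a median WT level of -0.10. The median WT level of the cytosolic ribosomal protein genes, 0.46, was above that of these 3 lists and below the 0.53 of 7 ES cell markers and the 0.49 of 10 fibroblast markers, and no test of these differences was made. In the zone from 2500 to 500 bp upstream, 58 members had a value, with medians of -0.04 in Dnmt1-KO, -0.14 in Eed-KO and -0.04 in WT cells. Of these 58, 45 were below WT in Eed-KO cells, where 51.3% of all genes were, with a median difference of -0.11 against -0.005. All probes were lower in Eed-KO cells at 11 of them, beside 4.66% of all genes. In Dnmt1-KO cells 27 were below WT, where 52.8% of all genes were. The lower Eed-KO reading was thus not confined to the start and the downstream zone.

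**Figure D5:**
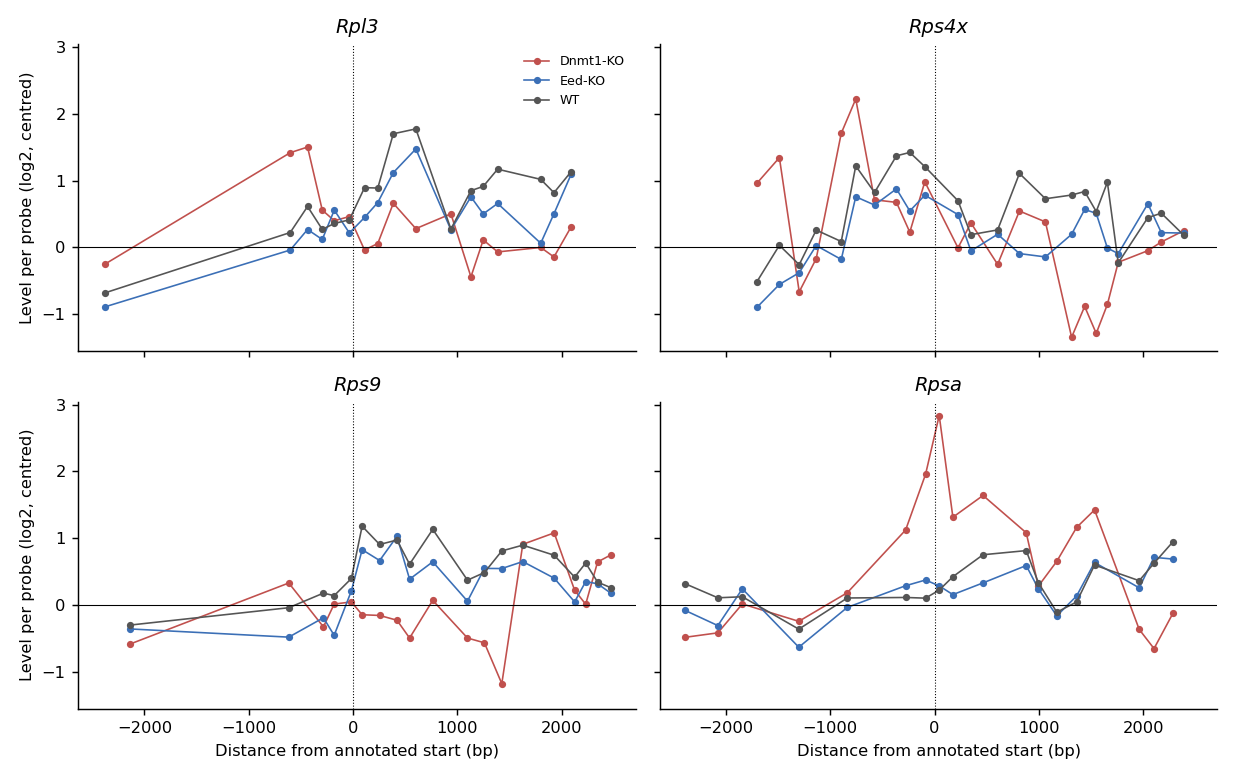
Rybp level of single probes along Rpl3, Rps4x, Rps9 and Rpsa, by distance from the annotated start in bp, on the log2 scale, with 1 line per genotype. At Rpl3 the WT and Eed-KO lines run above the Dnmt1-KO line at most probes past the start, at Rps9 the same holds over the first probes past it, and at Rpsa the Dnmt1-KO line peaks at 2.84 next to the start.

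The 3 named core genes outside the rule were also below WT in Eed-KO cells at their starts. Rpl34 had -0.28 in Dnmt1-KO, 0.44 in Eed-KO and 0.67 in WT cells. Fau had 0.30 in Dnmt1-KO, 0.09 in Eed-KO and 0.42 in WT cells. With Rplp0, the Eed-KO values were below WT by 0.16 to 0.33, and Dnmt1-KO cells were below WT at Rpl34 and Fau and above it at Rplp0. The members lie on 19 chromosomes, and leaving out those on chromosomes 12, 14, 17 and X changed the start-window median difference to 0.26 in Dnmt1-KO and -0.16 in Eed-KO cells, the same values to 2 decimals.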

How the data were processed

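Rybp ChIP and input DNA were hybridised to 6 arrays, 1 per genotype on each of 2 designs with 237195 and 237185 probes. The deposited processed signals are intensities that the authors' scanner software had background-subtracted and dye-normalised, per the file headers, with Agilent Feature Extraction 9.5.3.1 on WT and Eed-KO arrays and 10.1.1.1 on Dnmt1-KO arrays. The submitters' processing notes list 9.5.3.1 for all. The authors' deposited value table holds log10 ratios, which differed from the scanner log ratio by 1 constant per array, within 0.001, at 99.0% of probes or more, so its centring was replaced. The array coordinates come with no named genome build (not given in the sources used here).

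From the deposited intensities, log2(Cy5/Cy3), IP over input, was centred on each array's median. 111 and 222 probes with outlier flags were left out and saturated ones kept. Signals were well above background, by the software's own flag, at 99.89% to 99.95% of the WT and Eed-KO probes and at 83.2% to 88.1% of the Dnmt1-KO probes, where the flag's multiplier was 13, not 2.6. The number of arrays limits the precision. Each gene's window is the run of 6 probes nearest the annotated start, a rule that uses no measured value. Means, SDs and SEs are over probes. With 1 array per genotype and promoter no test was made. Bound means a level of at least 1.

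The members, gene lists and rules were chosen with earlier results of these data known. Named genes are the 8 highest and 4 lowest WT levels, the 8 lowest and 6 highest differences per knockout, all paralogues, a set of well-known genes, and the 2 lowest and 2 highest of the translation and assembly lists. Some genes are counted in the summaries and not reported by name here. The downstream zone and the genes named in it were chosen after their values were seen. Gene lists were matched through RefSeq accessions (15858 of 16411 genes matched). The window functions recovered known differences on simulated arrays with the same noise for all 3 genotypes. The unequal spread of the real arrays was not simulated. Python 3.11.15, numpy 2.4.6, pandas 2.3.3, statsmodels 0.14.6, R 4.3.3 and limma 3.58.1 were used.

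Alternatives were other windows (the highest run over 3 or over 2 genotypes, 4 probes, all probes, upstream probes), 1 spread per design, centring on the mode, normexp with an offset of 50, the authors' table, removal of a GC trend (lowess, span 0.3, 3 passes), other probe filters, single designs, other member sets and thresholds of 1.5-fold and 3-fold.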

Additional observations from a re-analysis of the deposited data

How the results depend on the processing

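No paired analysis was possible because each promoter had 1 array per genotype and no result comes from a test. The median Eed-KO difference of the start windows was negative in all 20 settings, from -0.27 to -0.11, and -0.2681 with 1 spread per design. The median Dnmt1-KO difference, 0.26 as reported, became -0.231 with the highest run over WT and Eed-KO, -0.03087 over all probes of the gene, -0.07287 with 1 spread and -0.1055 with 1 spread after removing the GC trend. Under the highest run over WT and Eed-KO, the Dnmt1-KO difference of Rpsa became -0.1233. The 17 members bound in Dnmt1-KO became 9 with that run, 0 over all probes, 9 upstream, 3 with 1 spread, 9 without the GC trend, 0 with both, 8 and 9 on array designs 1 and 2 alone, 39 at 1.5-fold and 3 at 3-fold. No member was bound in Eed-KO cells in any of them. The 0 bound in WT became 4 with either highest run, 1 upstream, 5 with 1 spread, 3 with 1 spread and no GC trend, 1 with the median over the 6 probes (chosen after seeing the data) and 9 at 1.5-fold. Among all promoters, 35.9% were bound in Dnmt1-KO, 1.98% in Eed-KO and 1.91% in WT cells. With 1 spread these shares were 14.6%, 5.53% and 8.54%, and without the GC trend 17.9%, 1.49% and 1.20%. With the highest run over 3 genotypes they were 46.1%, 5.76% and 5.16%. Shares of all promoters bound were not computed for every setting, and start-window shares with all probes lower only with the main window and scaling. Counts without such a share are not read as results about the members. Members with all probes lower in Eed-KO, 17, became 29 with the highest run over WT and Eed-KO, 1 over all probes and 4 on design 1 alone. Those lower in Dnmt1-KO, 3, became 16 with that run, 0 over all probes, 1 upstream, 8 with 1 spread, 0 with normexp, 7 with 1 spread and no GC trend, and 1 on design 1 alone. Single designs hold fewer members, which lowers such counts by construction. Over all probes of a gene, more probes have to be lower together, which also lowers the all-lower counts by construction. The thresholds change the bound counts by definition. The highest run over WT and Eed-KO is picked by the values of these genotypes alone, which lowers Dnmt1-KO minus WT by construction. Scaling to 1 spread narrows the Dnmt1-KO values and widens the WT and Eed-KO values. For the other changes the cause was not tested. In the downstream zone (alternatives added after seeing the data), 1 spread gave medians of -0.4369 in Eed-KO, -0.5684 in Dnmt1-KO and a WT level of 0.6674, with both changes -0.445, -0.553 and 0.6549, and no alternative turned a direction. With 1 array per genotype and design, a difference between genotypes cannot be told apart from a difference between single hybridisations. Leaving out dim input probes gave 14 members bound in Dnmt1-KO.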
